A study of Mus musculus with 4 samples.

Results

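Adrenergic signalling was described in 10-week-old hearts through the genes of its receptors, receptor kinases, G protein α subunits and adenylyl cyclases. The list held 9 genes (*Adrb1*, *Adra1a*, *Adra1b*, *Adrbk1*, *Grk5*, *Adcy5*, *Adcy6*, *Gnas* and *Gnai2*), and a member was every probe set to which the platform annotation gives one of these symbols alone. Of the 9 genes, 6 were found in this way, with 15 probe sets of the 45037 that were tested. *Adrb1*, *Adra1a* and *Adrbk1* (now *Grk2*) were not analysed here, so the account holds neither the β1 receptor nor its best known kinase. Gene expression had been measured on Affymetrix GeneChip Mouse Genome arrays in 2 Jun delta mu and 2 Jun f/f hearts, with 1 array per heart. Jun delta mu mice carry floxed *Jun* alleles and a Cre transgene under the muscle creatine kinase promoter, which deletes *Jun*, the gene of the AP-1 transcription factor c-jun, in heart and skeletal muscle cells. Jun f/f mice are littermates that carry the floxed alleles without Cre, so deletion of *Jun* and presence of Cre cannot be told apart. All mice were of a mixed 129/Ola and C57BL/6 background, and no operation or treatment is given for them. The growth notes of the samples speak of plated ventricular cells, whereas titles, source and methods speak of whole hearts, and the values are given here as those of hearts.

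Noradrenaline and adrenaline act on heart muscle cells through β receptors, which couple to the stimulatory G protein Gs, and through α1 receptors, which couple to Gq. Gs activates adenylyl cyclase, cAMP activates protein kinase A, and phosphorylation of calcium handling and filament proteins raises the rate and force of contraction, while the inhibitory G protein Gi restrains the cyclase. Receptor kinases phosphorylate activated receptors, which then bind arrestins and uncouple from their G proteins.

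*Jun* was low in both Jun delta mu hearts, as their labels have it. Its 2 probe sets had log2 signals of 7.02 and 7.14, and of 6.58 and 6.86, in Jun delta mu hearts, against 8.30 and 9.0, and 7.78 and 8.15, in Jun f/f hearts. Differences between genotypes are given as the mean log2 signal of Jun delta mu minus that of Jun f/f hearts, with the standard error from a limma fit over all probe sets. They were -1.57 ± 0.23 and -1.24 ± 0.17 (SE) for *Jun*, in whole hearts whose cells other than muscle keep the gene. Median signals of the arrays were 5.45 to 5.47. Jun f/f replicate 1 stood apart, since 104 of its probe sets lay over 2-fold away from the average of the remaining 3 arrays, a number that was 24 to 33 for any other array. On Jun delta mu replicate 2 the atrial muscle genes *Myl7*, *Myl4* and *Sln* were at 9.11, 9.02 and 8.11, whereas the other arrays lay between 3.81 and 6.03. The remaining atrial markers listed stood apart less or not at all on that array. *Nppa* was at 12.79 there and at 11.88 to 12.40 on the other arrays, and *Nr2f2* was at 7.08, within their 7.04 to 7.43. The 10 markers of working heart muscle were abundant on every array, with a mean log2 signal of 14.27 and 14.29 in Jun delta mu hearts and 14.30 and 14.29 in Jun f/f hearts.

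*Grk5* was the one member past the study's threshold of 1.3-fold at an unadjusted p under 0.05, and it was higher in Jun delta mu hearts, by 1.32-fold and 1.34-fold on its 2 probe sets. No gene passed after adjustment for the number of probe sets. It encodes a G protein-coupled receptor kinase that is abundant in heart and phosphorylates activated β receptors, and that can also enter the nucleus of heart muscle cells. Its brighter probe set (1449514_at) had log2 signals of 9.88 and 9.80 in Jun delta mu hearts and of 9.50 and 9.39 in Jun f/f hearts. The dimmer one (1436672_at) was at 7.85 and 7.61 in Jun delta mu hearts and at 7.39 and 7.21 in Jun f/f hearts. With both probe sets, each Jun delta mu heart lay above each Jun f/f heart, and Jun f/f replicate 2 was the lowest array.

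The group means of the brighter probe set were 9.84 ± 0.06 in Jun delta mu and 9.45 ± 0.08 in Jun f/f hearts (SD, n = 2 each), a difference of 0.40 (95% interval 0.16 to 0.63), or 1.32-fold. Those of the dimmer one were 7.73 ± 0.17 in Jun delta mu and 7.30 ± 0.12 in Jun f/f hearts (SD, n = 2 each), a difference of 0.43 (95% interval 0.12 to 0.74), or 1.34-fold. Both passed the study's threshold, with the p taken from the limma fit and 1.3-fold being 0.38 on the log2 scale. The unadjusted p of limma was 0.00733 and 0.0158, and the adjusted p over all probe sets was 0.896 for both. *Grk5* is also among the genes that the study picked from these same arrays, so the probe sets are no independent evidence of its direction, and being 2 readings of 1 gene in the same hearts they are not independent of each other. The brighter probe set lay only just above 1.3-fold, and it was below this when Jun delta mu replicate 1 (0.35) or Jun f/f replicate 2 (0.34) was left out. Without Jun f/f replicate 1, the array that stood apart, the differences were 0.45 and 0.52, both past the threshold. The dimmer probe set did not pass without Jun delta mu replicate 1 or Jun f/f replicate 2 either, at 0.31 and 0.34, or by the methods' t-test, whereas the brighter one passed by that test. An exact permutation test of 2 against 2 hearts cannot give a two-sided p below 0.333 and was not used.

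**Figure D1:**
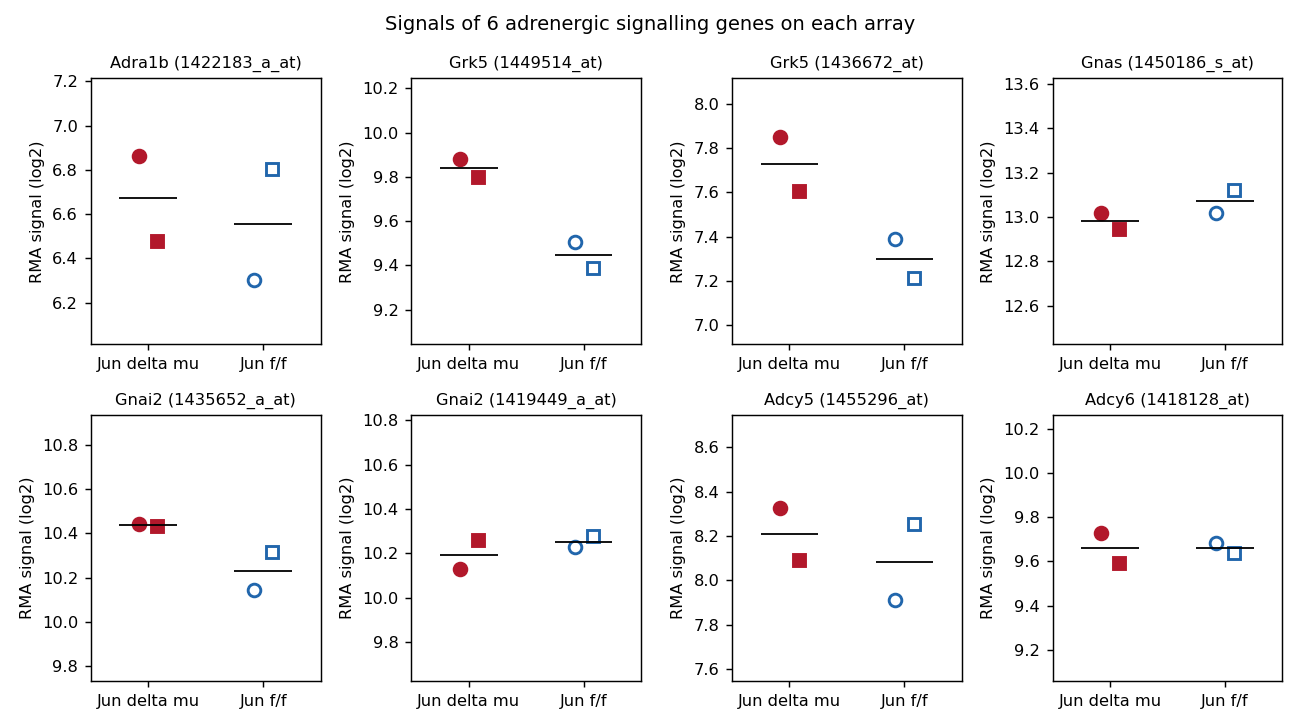
RMA signal (log2, y axis, each panel spanning the same range of 1.2 units) of 8 probe sets of the 6 measured genes, with filled red symbols for Jun delta mu and open blue symbols for Jun f/f hearts, replicate 1 drawn as circles, replicate 2 as squares, and group means as lines. Both probe sets of Grk5 show the Jun delta mu hearts above the Jun f/f hearts, whereas the groups of Adra1b, Adcy5, Adcy6 and the dimmer probe set of Gnai2 overlap.

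Since c-jun binds DNA as part of AP-1, the stretch around the annotated start of *Grk5* is shown, from 250 bases before the start to 50 bases after it. It lies at chr19:60889499-60889798 on the plus strand of GRCm38.p6 (RefSeq), and capitals mark the 50 bases from the start onward.
Grk5 start region: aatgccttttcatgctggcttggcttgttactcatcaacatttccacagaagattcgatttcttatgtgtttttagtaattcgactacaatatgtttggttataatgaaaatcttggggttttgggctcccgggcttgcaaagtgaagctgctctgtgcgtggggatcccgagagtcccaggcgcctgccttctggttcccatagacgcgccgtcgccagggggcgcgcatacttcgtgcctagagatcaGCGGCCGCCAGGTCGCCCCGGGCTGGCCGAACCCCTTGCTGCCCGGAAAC
Neither the AP-1 motif TGACTCA nor the cAMP response element TGACGTCA, both searched on either strand, is among these letters. Sites farther from the start and variants of the motifs were not searched, and control of *Grk5* by c-jun was not tested. Neither motif contains the other, and they occur in 5.20% and 1.79% of all 32851 start regions of this length in the table. Of the 9 listed genes, 5 have start regions there, 9 in all, and TGACTCA was found in 1 of them, which belongs to *Adra1b*, while TGACGTCA was found in none.

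The α1B receptor gene *Adra1b* had signals that overlapped between genotypes. The receptor couples to Gq and phospholipase C and has been tied to growth of heart muscle cells. Its single probe set (1422183_a_at) was at 6.86 and 6.48 in Jun delta mu hearts, against 6.30 and 6.81 in Jun f/f hearts. The lowest signal was in Jun f/f replicate 1 and the next lowest in Jun delta mu replicate 2, so that the replicates of a genotype lay further apart than the genotypes. The difference was 0.12 (SE 0.21, limma adjusted p = 0.960), with a 95% interval of -0.41 to 0.64, the widest among the members. Its direction depends on the array left out, being -0.13 when Jun f/f replicate 1 was left out and 0.37 when it was Jun f/f replicate 2. The 1 start region with AP-1 letters is the more distal of 2 annotated for *Adra1b*, at chr11:43901188-43901487 on the minus strand of GRCm38.p6 (RefSeq). Capitals mark these letters, which read TGAGTCA on the strand of the gene and have their first base at -198 relative to the start.
Adra1b distal start region: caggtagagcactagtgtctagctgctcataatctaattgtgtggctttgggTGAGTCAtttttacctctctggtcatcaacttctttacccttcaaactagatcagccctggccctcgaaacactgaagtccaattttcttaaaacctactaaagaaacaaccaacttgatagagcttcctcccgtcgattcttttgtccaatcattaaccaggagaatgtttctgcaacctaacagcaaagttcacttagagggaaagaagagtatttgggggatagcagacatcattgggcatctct
The match describes the letters alone, and binding was not measured in these hearts.

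The G protein α subunits did not pass the threshold. *Gnas* encodes Gsα, which carries the β receptor signal to adenylyl cyclase, and its locus gives rise to further imprinted transcripts from other starts. Its bright probe set (1450186_s_at) was at 13.02 and 12.94 in Jun delta mu hearts and at 13.02 and 13.12 in Jun f/f hearts. These arrays lay close together, with a difference of -0.09 (SE 0.09, limma adjusted p = 0.932) and a 95% interval of -0.32 to 0.14, inside 1.3-fold on both sides. The remaining 4 probe sets of *Gnas* had signals of 3.61 to 5.26, below the median of every array, where RMA compresses differences. Their differences ran from -0.10 to 0.21, and none passed.

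*Gnai2* encodes Gαi2, an inhibitory subunit that restrains adenylyl cyclase, and its 2 probe sets differed in direction without passing the threshold. The first (1435652_a_at) was at 10.44 and 10.43 in Jun delta mu hearts, both above the 10.15 and 10.31 of Jun f/f hearts. Its difference of 0.21 (SE 0.10, 95% interval -0.04 to 0.46, limma adjusted p = 0.896) was the highest among the members other than *Grk5* and did not pass. The other (1419449_a_at) was at 10.13 and 10.26 in Jun delta mu hearts and at 10.23 and 10.28 in Jun f/f hearts, a difference of -0.06 (SE 0.10, 95% interval -0.30 to 0.18). Both are bright probe sets of the gene, and which of them follows the whole transcript pool was not tested.

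*Adcy5* and *Adcy6* encode the main adenylyl cyclases of heart muscle, which make cAMP under Gs and are inhibited by Gi. The brightest probe set of *Adcy5* (1455296_at) was at 8.33 and 8.09 in Jun delta mu hearts and at 7.91 and 8.25 in Jun f/f hearts, a difference of 0.13 (SE 0.15, 95% interval -0.25 to 0.51). All 4 probe sets of *Adcy5* had differences above 0, from 0.06 to 0.18, and none passed. On all 4, Jun f/f replicate 1, the array that stood apart, was the lowest, and without it 3 of the 4 differences were below 0, at -0.04, -0.03 and -0.13. The fourth (1439829_at) was at 4.26 and 4.36 in Jun delta mu and 4.05 and 4.20 in Jun f/f hearts, below the median of every array.

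*Adcy6* was the member with the difference nearest 0. Its single probe set (1418128_at) was at 9.73 and 9.59 in Jun delta mu hearts, on either side of the 9.68 and 9.64 of Jun f/f hearts. The difference was 0.00 (SE 0.10), with a 95% interval of -0.24 to 0.24. This interval lies inside 1.3-fold on both sides, but it rests on few hearts per genotype.

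**Figure D2:**
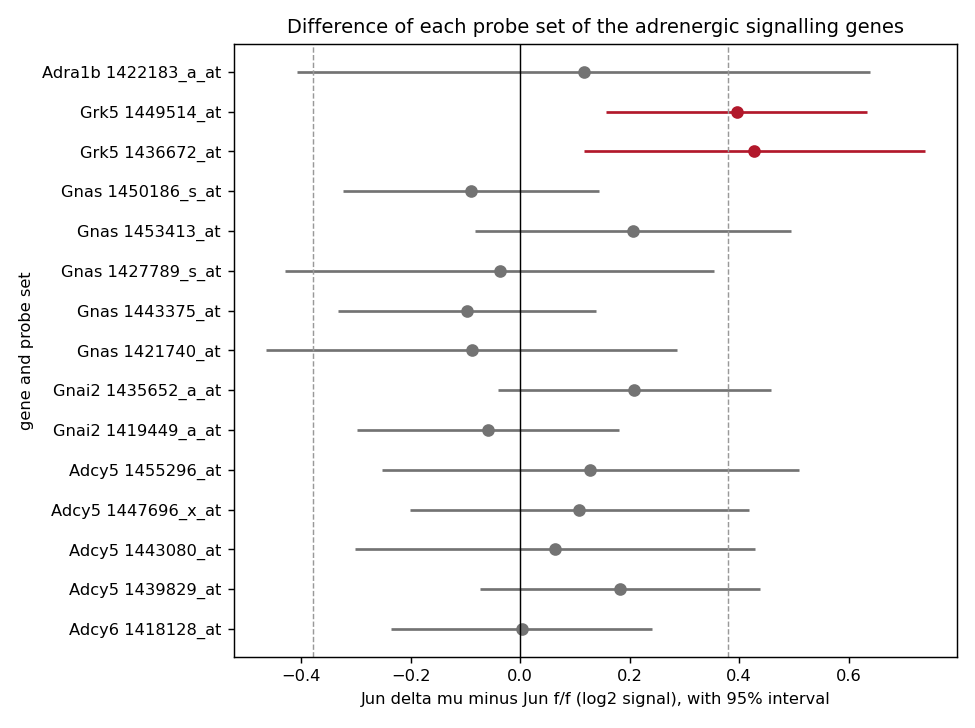
Difference of Jun delta mu minus Jun f/f hearts (log2 signal, x axis) for each of the 15 probe sets (y axis), with 95% intervals from limma. Red marks the probe sets past the study's threshold, and dashed lines stand at 1.3-fold in both directions; both probe sets of Grk5 lie at 0.40 and 0.43, and the other 13 between -0.10 and 0.21.

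Of the 15 probe sets, 2 passed the study's threshold as higher, both of *Grk5*, and 0 as lower, where 0.568% and 0.959% of all 45037 probe sets passed in these directions (1.53% in either). The other 13 did not pass, and 5 of the 6 measured genes had no probe set past it. No member reached an adjusted p under 0.05 with limma, nor did any of the 45037 probe sets (0% called), of which the smallest adjusted p was 0.237, while 2 member probe sets and 2326 of all probe sets (5.16%) had an unadjusted p under 0.05. By the methods' t-test with the same adjustment the number was likewise 0. Jun delta mu and Jun f/f hearts did not overlap on 7 member probe sets, 5 higher and 2 lower, where over all probe sets 17.3% were higher and 16.7% lower in this way, 33.9% together. Among the 7, *Gnas* 1450186_s_at was all but tied, with 13.0179 on Jun delta mu replicate 1 against 13.0182 on Jun f/f replicate 1. By the brightest probe set of each gene the median difference of the 6 genes was 0.12, beside 0.01 for all 18193 genes. Leaving out Jun delta mu replicate 1 gave a median of -0.03, and leaving out Jun f/f replicate 2 gave 0.30. The standard errors of the members, 0.09 to 0.21, leave 95% intervals of at least 0.23 on either side of a difference. Changes smaller than 1.3-fold, which is 0.38 on this scale, could be missed for most members with 2 hearts per genotype, and larger ones for some. By the brightest probe set of each gene, the interval reached 0.64 for *Adra1b*, 0.51 for *Adcy5* and 0.46 for *Gnai2*, past 1.3-fold. For *Gnas* and *Adcy6* it stayed inside 1.3-fold on both sides.

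**Figure D3:**
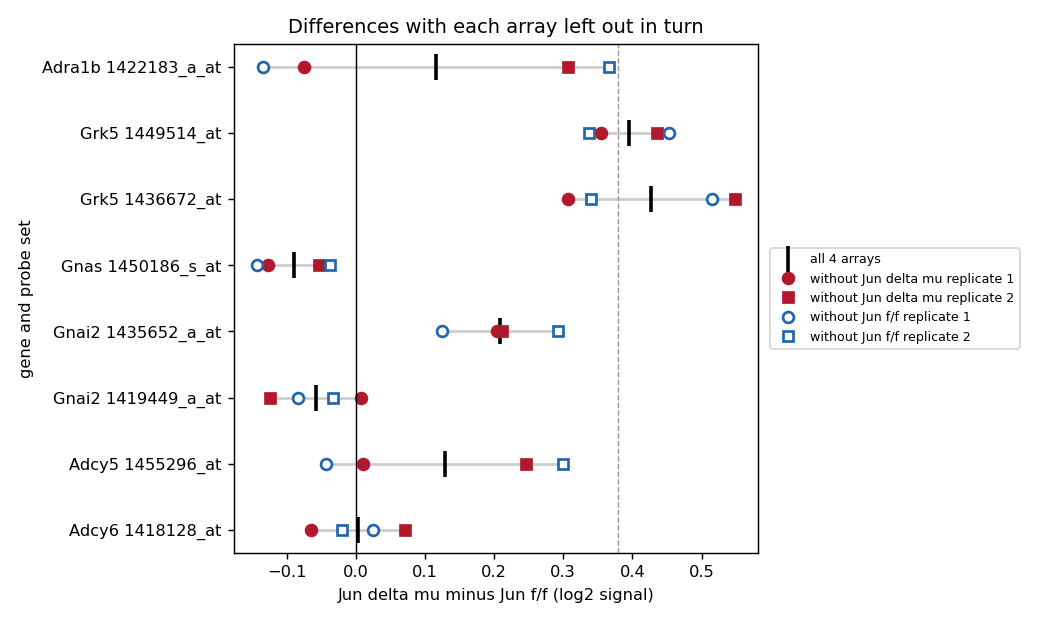
Difference of Jun delta mu minus Jun f/f hearts (log2 signal, x axis) for 8 probe sets (y axis) on all 4 arrays (black bar) and with each array left out in turn (filled red for a Jun delta mu array, open blue for a Jun f/f array, replicate 1 as circles and replicate 2 as squares). The dashed line stands at 1.3-fold; Grk5 stays above 0 throughout, at 0.31 to 0.55 over both probe sets, but crosses the dashed line, while Adra1b, Adcy5, Adcy6 and the dimmer probe set of Gnai2 change sign.

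Around the members, 92 other genes of adrenergic and cAMP signalling were measured by their brightest probe set, of 105 listed. They comprise other receptors, receptor kinases with arrestins and RGS proteins, G protein subunits, adenylyl cyclases, phosphodiesterases, protein kinase A with its anchors, its targets, the effectors of α1 receptors, and enzymes and transporters of catecholamines. Of the 92, 1 was higher and 0 were lower past the threshold (0.665% and 0.786% of all genes by this count, 1.45% in either direction), and 39 lay above and 53 below 0, with a median difference of -0.03. The 1 gene was *Adcy10*, a soluble adenylyl cyclase that responds to bicarbonate and calcium in place of Gs. It was at 3.93 and 4.06 in Jun delta mu hearts, against 3.60 and 3.61 in Jun f/f hearts, all below the array medians. The difference was 0.39 (SE 0.09, limma adjusted p = 0.896), and the gene is another that the study picked from these arrays. It did not pass after quantile normalization, at 0.38, or without Jun delta mu replicate 2, at 0.33.

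Between receptor and cyclase, the 9 receptor kinases, arrestins and RGS proteins had a median difference of -0.13, with 8 of 9 below 0 and none past the threshold by the brightest probe set. *Rgs2*, which speeds the inactivation of Gq, varied between the Jun f/f replicates, with 9.94 and 9.97 in Jun delta mu hearts, against 10.74 and 9.52 in Jun f/f hearts. Its difference was -0.18. It passed as higher, at 0.43, once Jun f/f replicate 1 was left out, and as lower, at -0.79, once Jun f/f replicate 2 was. *Rgs3*, a related regulator of Gi and Gq that the study also picked, was at -0.28 by its brightest probe set. A dimmer one (1425701_a_at) was lower past the threshold at -0.39, with 6.76 and 7.06 in Jun delta mu hearts and 7.40 and 7.20 in Jun f/f hearts. It did not pass without Jun delta mu replicate 1, at -0.24, or Jun f/f replicate 1, at -0.29, nor after quantile normalization, at -0.35.

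Of 15 other G protein subunits none passed. *Gnb2*, a β subunit, was at -0.09. *Gnao1*, the Goα subunit best known from nerve cells, was at 7.37 and 7.44 in Jun delta mu hearts, below the 7.66 and 7.77 of Jun f/f hearts, and its difference of -0.31 had an unadjusted p of 0.0187 in limma (adjusted p = 0.896) but did not reach 1.3-fold. *Adra2c*, the α2C receptor and the single other receptor measured, was at 5.62 and 5.73 in Jun delta mu hearts and at 5.57 and 5.97 in Jun f/f hearts, a difference of -0.09. Among 10 cyclase genes and cyclase-associated proteins, *Adcy9* was at -0.11. *Adcy8*, a calcium-stimulated cyclase of low signal here (4.76 and 4.67 in Jun delta mu, 4.37 and 4.34 in Jun f/f hearts), was at 0.36 with an unadjusted p of 0.00831 in limma (adjusted p = 0.896), just under 1.3-fold. It passed, at 0.40, when Jun delta mu replicate 2 was left out.

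Downstream of cAMP no main component passed the threshold. *Prkar1a*, a regulatory subunit of protein kinase A, differed by -0.01, and of its targets phospholamban (*Pln*) by -0.02 and cardiac troponin I (*Tnni3*) by 0.00. *Popdc2*, a membrane protein that binds cAMP, was at 12.24 and 12.17 in Jun delta mu hearts and at 11.90 and 12.08 in Jun f/f hearts, a difference of 0.21 that did not pass. None of 18 genes of protein kinase A and its anchors and none of 11 targets and phosphatase inhibitors passed, with medians of 0.00 and -0.02. Among 12 phosphodiesterases, which break down cyclic nucleotides, none passed by the brightest probe set. *Pde2a* was at 9.93 and 10.05 in Jun delta mu hearts, below the 10.36 and 10.21 of Jun f/f hearts, a difference of -0.30 (unadjusted p = 0.0301 in limma, adjusted p = 0.896). *Pde1c* was at 9.58 and 9.02 in Jun delta mu hearts and at 9.04 and 9.01 in Jun f/f hearts, so that its difference of 0.27 rests on Jun delta mu replicate 1 and was -0.0048 without it. Without Jun delta mu replicate 2 it passed as higher, at 0.55. *Pde4d*, which limits cAMP near β receptors and calcium release channels, differed by 0.03 by its brightest probe set, while a dim one (1459311_at) was lower past the threshold at -1.08, with 3.14 and 3.10 in Jun delta mu hearts and 4.57 and 3.83 in Jun f/f hearts (-0.71 with Jun f/f replicate 1 left out). Dimmer probe sets passed for 2 further genes, as lower for *Prkar1b*, a regulatory subunit of protein kinase A, at -0.41 (-0.34 and -0.27, not past it, without Jun delta mu replicate 1 and without the first Jun f/f array) and as higher for *Itpr2*, the inositol trisphosphate receptor of heart muscle, at 0.49. By the methods' t-test the dimmer probe sets of *Rgs3*, *Pde4d* and *Prkar1b* did not pass. Over all 92 genes, 4 dimmer probe sets passed, those of *Rgs3*, *Pde4d*, *Prkar1b* and *Itpr2*. Among all 45037 probe sets 1.53% passed in either direction. The share among the dimmer probe sets of the 92 genes was not computed, so the 4 are not read as a result about these genes.

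Of 8 effectors of α1 receptors none passed by the brightest probe set, with *Plcb4*, a phospholipase C, at 0.05 and *Prkce*, a protein kinase C, at 0.09. Of 8 genes of catecholamine synthesis, uptake and breakdown none passed. *Dbh*, which makes noradrenaline in sympathetic nerve endings, was at 7.80 and 7.74 in Jun delta mu hearts and at 7.65 and 7.98 in Jun f/f hearts.

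**Figure D4:**
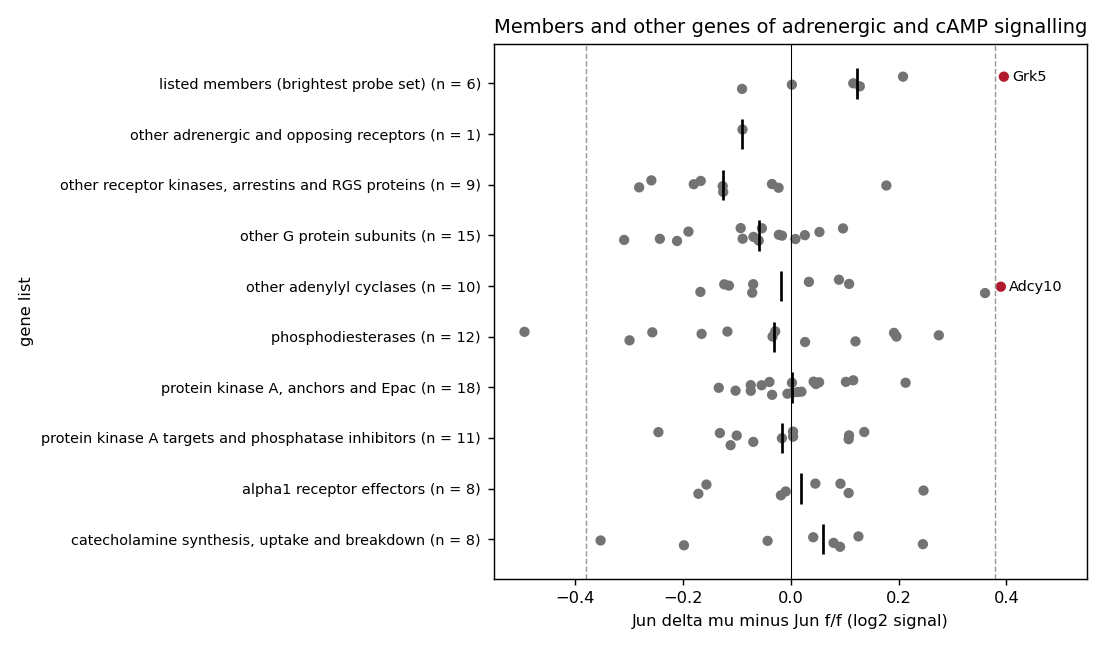
Difference of Jun delta mu minus Jun f/f hearts (log2 signal, x axis) for the 6 members and the 92 other genes by list (y axis), 1 point per gene by its brightest probe set, with black bars at the list medians and dashed lines at 1.3-fold. Red marks genes past the study's threshold, which are Grk5 at 0.40 and Adcy10 at 0.39.

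Mean levels of some cell type markers were separated between the same hearts in which *Grk5* was higher, though 1 marker alone of the 9 lists passed the threshold, where 1.45% of all genes passed in either direction. Over all probe sets 33.9% did not overlap between the genotypes. That share is of single probe sets, and none was computed for means of lists, so how often such means separate is not known here. Even the mean of the 10 markers of working heart muscle was separated, though all but tied. It was at 14.2904 on Jun delta mu replicate 2 against 14.2929 on Jun f/f replicate 2. In bulk tissue, fewer cells of a type and less RNA per cell cannot be told apart. The 5 smooth muscle markers had a mean log2 signal of 7.68 and 7.99 in Jun delta mu hearts, against 8.34 and 8.11 in Jun f/f hearts, with 4 of 5 below 0 and *Cnn1*, a contractile protein gene of smooth muscle, lower past the threshold (4.67 and 5.11 in Jun delta mu, 5.81 and 5.31 in Jun f/f hearts). The 6 endothelial markers had a mean of 8.90 and 8.86 in Jun delta mu hearts, below the 8.99 and 9.05 of Jun f/f hearts, and the 7 fibroblast markers were at 10.35 and 10.43 in Jun delta mu hearts, above 10.32 and 10.22 in Jun f/f hearts, with 5 of 7 above and 2 of 7 below 0. The 7 skeletal muscle markers had a mean of 6.35 and 6.54 in Jun delta mu hearts, below the 6.56 and 6.60 of Jun f/f hearts, with 4 of 7 below 0. Among them *Acta1*, skeletal muscle actin, was at 9.74 and 10.71 in Jun delta mu hearts and at 10.75 and 11.30 in Jun f/f hearts, a difference of -0.80 that did not pass. The remaining differences of this list ran only from -0.11 (*Myh2*) to 0.11 (*Tnnt3*), so the separated mean rests on *Acta1*. The study counts *Acta1* among the hypertrophic marker genes of the heart and found it lower in Jun delta mu hearts by quantitative RT-PCR. The 5 atrial markers had a mean of 6.91 and 9.22 in Jun delta mu and of 6.74 and 7.03 in Jun f/f hearts, with 4 of 5 above and 1 of 5 (*Nr2f2*) below 0. The mean was high on Jun delta mu replicate 2 alone, through *Myl7*, *Myl4* and *Sln*. With that array left out, the probe sets of *Grk5* differed by 0.44 and 0.55. The 4 nerve markers measured were at 5.16 and 5.25 in Jun delta mu and at 5.12 and 5.16 in Jun f/f hearts. Means of the 6 leukocyte markers overlapped, at 8.30 and 8.21 in Jun delta mu and 8.28 and 8.15 in Jun f/f hearts. So did those of the 5 adipocyte markers measured, at 5.31 and 5.20 in Jun delta mu and 4.99 and 5.25 in Jun f/f hearts. The part of smooth muscle, endothelial, fibroblast, skeletal muscle and atrial cells in the differences given here was not tested.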

How the data were processed

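Total RNA of 2 Jun delta mu and 2 Jun f/f hearts was hybridized to Affymetrix GeneChip Mouse Genome arrays, and raw data were processed with the AGCC software. The values deposited by the authors are RMA signals on the log2 scale per probe set (R package oligo, versions not given in the sources used here), background-corrected and normalized between arrays, with 0 missing values and no detection calls. Of 45101 probe sets, 64 AFFX controls were left out and 45037 tested without a filter. The platform annotation names 1 gene for 34945 of them, several for 932 and none for 9160.

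A model with genotype alone was fitted to every probe set by lmFit and eBayes of limma 3.58.1 (R 4.3.3, two-sided, 2 residual degrees of freedom), with Benjamini-Hochberg adjustment over all 45037. Per-gene counts used the probe set with the highest mean signal. Groups and replicate numbers came from the sample descriptions. The labels do not say whether replicates shared a litter or day. The p-values of limma rest on the spread between these hearts, drawn toward a prior from all probe sets (5.46 total degrees of freedom). Array number limits the precision. The alternatives were the methods' t-test, a trended robust prior, a replicate block, removal of the dimmest 40% of probe sets, quantile normalization, median centring, the mean over a gene's probe sets and leaving out each array, where the lone array takes the spread of the opposite genotype. On simulated data for this comparison with 45037 probe sets, 84% of 50 shifted by 0.5 on the log2 scale passed the study's threshold and 0% reached an adjusted p under 0.05, and 98% and 22% of 50 shifted by 1. Members and lists were chosen with earlier results of these data known. Named genes were all members, pathway genes past the threshold and up to 3 of the brightest per list; *Adcy8*, *Gnao1*, *Prkar1b*, *Itpr2*, *Cnn1* and the dimmer probe sets of *Rgs3* and *Pde4d* were named after their values were seen. Start regions came from RefSeq tables on GRCm38.p6. Figures were drawn with matplotlib 3.10.9.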

Additional observations from a re-analysis of the deposited data

How the results depend on the processing

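No result here has more than 2 arrays per genotype, and leaving out 1 array moved most values more than any change of method. The number of member probe sets higher past the study's threshold was 2, and it was 1 by the methods' t-test, 1 (a gene) with the mean over the probe sets of a gene, and 0 to 2 with 1 array left out, with 0 without Jun delta mu replicate 1 and without Jun f/f replicate 2. The median difference of the members ran from -0.028 to 0.30 with 1 array left out. The 1 pathway gene that was higher became 0 without the dimmest 40% of probe sets and 0 with quantile normalization, and 1 to 4 were higher and 0 to 6 lower with 1 array left out, while 1 was lower with the mean over the probe sets of a gene. Over all probe sets, 256 higher and 432 lower became 89 and 111 by the methods' t-test, 158 higher without the dimmest 40%, 81 and 103 genes with the mean over the probe sets of a gene, and 320 to 1466 higher and 419 to 1986 lower with 1 array left out, the highest of both without Jun f/f replicate 2. With the mean over a gene's probe sets 2 genes reached an adjusted p under 0.05 in limma.

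Of 37 named probe sets, 20 were turned by no alternative tried, among them *Pln*, which was at exactly 0 with quantile normalization, and 16 changed direction when some array was left out. With 1 array left out, the difference ran from -0.13 to 0.37 for *Adra1b*, from -0.065 to 0.070 for *Adcy6*, from -0.12 to 0.0078 for the dimmer probe set of *Gnai2*, from -0.25 to 0.18 and from -0.28 to 0.10 for *Gnas* 1427789_s_at and 1421740_at, and from -0.043 to 0.30, from -0.031 to 0.25 and from -0.13 to 0.26 for 3 probe sets of *Adcy5*. It ran from -0.29 to 0.11 for *Adra2c*, from -0.79 to 0.43 for *Rgs2*, from -0.24 to 0.0091 for *Adcy9*, from -0.042 to 0.10 for *Pde4d*, from -0.0048 to 0.55 for *Pde1c*, from -0.023 to 0.011 for *Prkar1a*, from -0.0070 to 0.016 for *Tnni3* and from -0.21 to 0.13 for *Dbh*. The mean over a gene's probe sets turned *Pde4d* to -0.53 and *Plcb4* to -0.020, and quantile normalization turned *Tnni3* to -0.011 and *Dbh* to 0.0011. The causes were not tested.

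The replicate numbers are shared by label only. Deviations of same-numbered hearts from their group means correlated at 0.03 across probe sets, and with the replicate block in the fit 2 member probe sets were again higher past the threshold, at 0.43 and 0.40 for *Grk5*, while the dimmer probe set of *Rgs3* did not pass.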
